A study of Mus musculus with 4 samples.

Results

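A set of 9 genes of insulin and IGF receptor signalling was examined in Beta-TC-6 cells, a mouse pancreatic beta cell line, after depletion of NF45. They were the receptors Insr and Igf1r, the receptor substrates Irs1 and Irs2, the phosphatidylinositol 3-kinase subunits Pik3ca and Pik3r1, the kinases Akt1 and Akt2, and the transcription factor Foxo1. These 9 were picked by symbol as a pathway, with Irs2 set against the others on the strength of its difference in this comparison, and each is read from its brightest probe set annotated to that gene alone. All 9 are among the 11742 genes that could be tested. The groups were 2 samples transfected with a mixture of RNA duplexes against NF45 (siNF45) and 2 samples transfected with a negative control siRNA (siNTC), all of the same line, grown in medium with high glucose and serum, with 1 Mouse Gene 2.1 ST array per sample. Whether samples sharing a group came from separate transfections is not given by the labels, so errors and p-values cover the spread among these 4 samples alone, part or all of which may be technical.

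Insulin and IGFs bind receptor tyrosine kinases, which phosphorylate the IRS docking proteins. These recruit phosphatidylinositol 3-kinase, whose lipid product brings AKT to the membrane, and AKT in turn phosphorylates FoxO factors and keeps them out of the nucleus. In beta cells Irs2 is the substrate best known for supporting growth and survival of the cells, and mice that lack it develop diabetes. Irs2 transcription is itself known to be driven by FoxO factors and by CREB with its CRTC coactivators.

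The knockdown was visible in its target. Ilf2, which encodes NF45, read 3.67 and 3.77 on the siNF45 arrays and 5.79 and 5.98 on the siNTC arrays (log2 expression). It fell by 2.17 (SE 0.13, limma adjusted p = 0.020 over all tested genes). Of 9 beta cell markers, 8 were tested and Ins1 was not analysed here. Their differences, siNF45 minus siNTC, lay between -0.17 and 0.18, and none passed in limma, with 0 at an unadjusted p under 0.05. Of 14 markers of other islet and pancreatic cell types, 5 reached the signal filter, with 3 differences below 0, 2 above and a median of -0.02. Sst read 8.18 and 8.07 on the siNF45 arrays, against 9.19 and 8.83 on the siNTC arrays, with a limma adjusted p of 0.103. Krt7 read 3.91 and 3.96 on the siNF45 arrays, against 3.41 and 3.13 on the siNTC arrays, with a limma adjusted p of 0.132. Ppy read 3.13 and 2.62 on the siNF45 arrays, against 2.18 and 2.54 on the siNTC arrays (limma adjusted p = 0.307), and Gcg and Vim, whose groups overlapped, differed by -0.02 and -0.28. The part of these cell types in the differences below was not tested. In bulk RNA, fewer cells of a kind and less RNA per cell cannot be told apart.

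Across the 9 members, 8 differences were below 0, as were 61.3% of those of all tested genes, and 1, that of Igf1r, was above, with a median of -0.22 against -0.07 over all tested genes. Both siNF45 arrays lay below both siNTC arrays for 7 members, a pattern that 32.6% of all tested genes show, and above both for Igf1r, as for 15.2% of all tested genes. Since the members were chosen on this contrast, nothing is read from these counts or from those that follow. The differences of the members are given as descriptions. For completeness, none of the 9 was among the genes past a limma adjusted p of 0.05, which make up 0.0852% of those tested, and 2 of the 9 were lower at an unadjusted p under 0.05, as were 13.2% of all tested genes. Centring each array on the median of the tested genes adds 0.13 to every difference. It moves the median difference over all tested genes from -0.07 to 0.07, so the centred scale does not put that median at 0. It leaves 3 members lower without overlap (Irs1, Irs2 and Pik3r1), against 18.1% of all tested genes, and 2 higher (Igf1r and Akt2), against 31.2%.

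**Figure D1:**
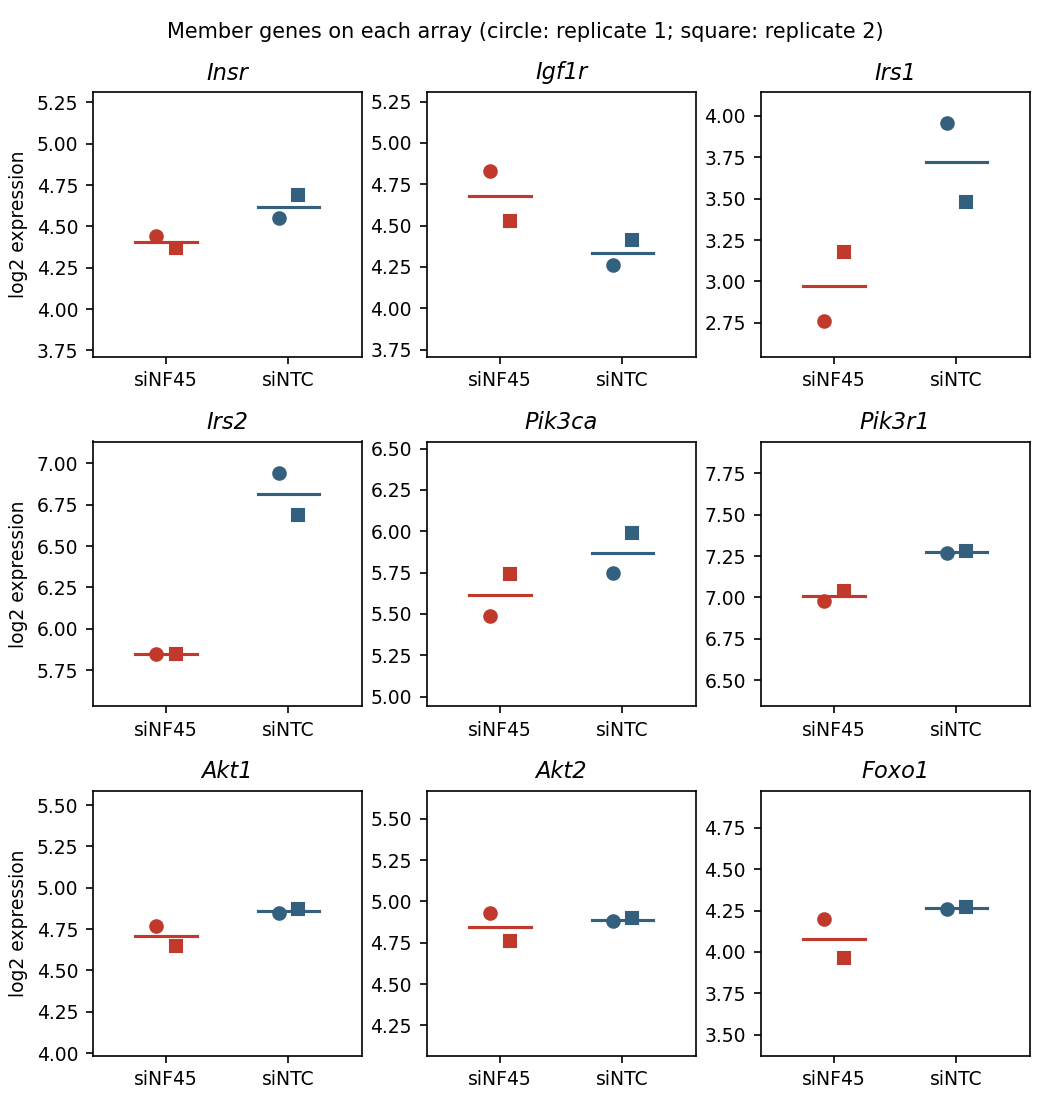
Log2 expression of the 9 member genes on each array. Each panel holds 1 gene, with siNF45 in red on the left and siNTC in blue on the right, circles for replicate 1, squares for replicate 2 and a line at the group mean; all panels span the same range of 1.6 log2 units. Irs2 and Irs1 show the widest separation, Igf1r lies higher in siNF45, and the groups overlap for Akt2.

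The receptors differed in opposite directions. The insulin receptor gene Insr read 4.44 and 4.37 on the siNF45 arrays and 4.55 and 4.69 on the siNTC arrays. The groups did not overlap, but the closest arrays were only 0.11 apart. The difference was -0.22 (SE 0.12), and it shrank to -0.09 after centring, where the groups overlapped. Igf1r, the receptor for IGF1 and IGF2, read 4.83 and 4.53 on the siNF45 arrays and 4.26 and 4.41 on the siNTC arrays. Both siNF45 arrays were the higher ones, with replicate 1 well above replicate 2. It was 4.68 ± 0.21 in siNF45 and 4.34 ± 0.11 in siNTC (SD, n = 2 each). This is a difference of 0.35 (SE 0.15), or 1.27-fold higher in siNF45. The Igf1r difference was 0.43 after quantile normalization and 0.48 after centring. It was the only member above 0 as deposited, and Akt2 joined it, at 0.021 and 0.085, after these rescalings. With 1 array left out the Igf1r difference ran from 0.20 to 0.50, the lowest being without siNF45 replicate 1. Of all tested genes, 5.1% had a difference at least as high.

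The IRS genes held the lowest differences of the 9. Irs2 read 5.85 on both siNF45 arrays and 6.94 and 6.69 on the siNTC arrays. The groups were separated by 0.84 at their closest. Irs2 averaged 5.85 ± 0 in siNF45 and 6.82 ± 0.18 in siNTC (SD, n = 2 each), a difference of -0.97 (SE 0.14, 95% interval -1.30 to -0.63), or 1.95-fold lower in siNF45. Irs2 was set against the others on this same difference, so the interval is no test and the size may be inflated by that choice. The SD of 0 holds for the values as deposited, given with 2 decimals, and the SE of the fit borrows spread from all genes. After centring the siNF45 replicates stood 0.12 apart and the closest arrays of the groups 0.68 apart. The difference was -0.84 after centring and -0.92 after quantile normalization. Across all tested genes, 0.732% had a difference at least as low.

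Irs1, the other main IRS docking protein, read 2.76 and 3.18 on the siNF45 arrays and 3.96 and 3.48 on the siNTC arrays. Here the replicates stood 0.42 apart in siNF45 and 0.48 apart in siNTC, while the closest arrays of different groups were 0.30 apart. It averaged 2.97 ± 0.30 in siNF45 and 3.72 ± 0.34 in siNTC (SD, n = 2 each). The difference was -0.75 (SE 0.22), which is 1.68-fold lower in siNF45. Leaving out 1 array gave values from -0.99, without siNTC replicate 2, to -0.51, without siNTC replicate 1. Without siNF45 replicate 1 or 2 it was -0.54 or -0.96, and its sign was the same in every fit run. Of all tested genes, 2.18% had a difference at least as low.

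**Figure D2:**
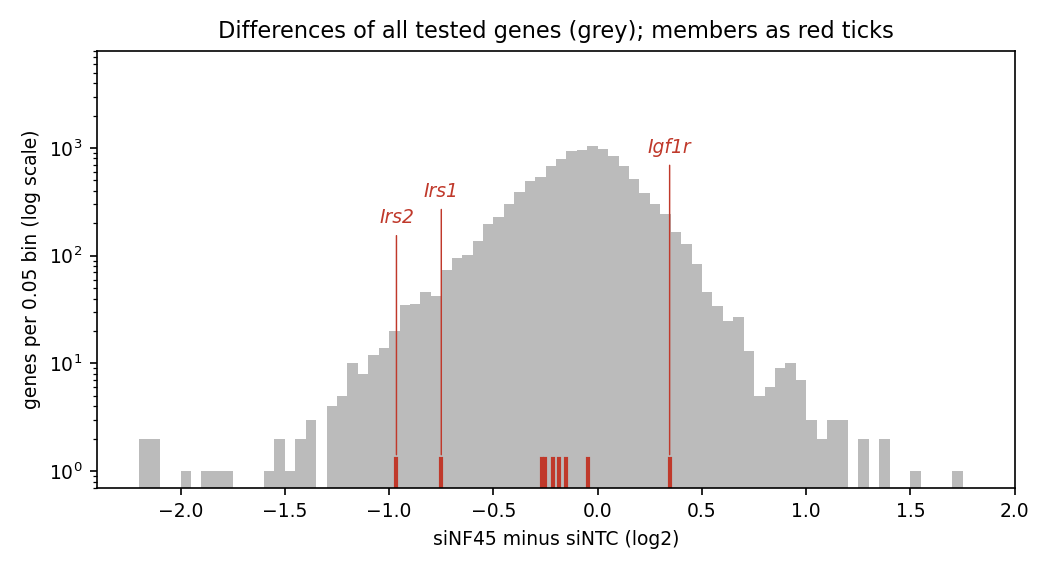
Histogram of the differences, siNF45 minus siNTC (log2), of all 11742 tested genes in bins of 0.05, with a log scale for the number of genes; red ticks mark the 9 members. Irs2 (-0.97) and Irs1 (-0.75) lie in the lower tail, Igf1r (0.35) above the bulk, and the other 6 close to the centre.

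Because the differences of Irs2 and Irs1 are the largest of the 9 in size and go the same way, the sequence before their annotated starts was compared. RefSeq windows of 250 bases before to 50 after the start (GRCm38.p6) matched 8 of the 9 members, and the stretch from -150 to -1 is shown for both genes, 5′ to 3′ on the strand of the gene. Irs2 is shown from chr8:11008930-11009079 and Irs1 from chr1:82291440-82291589, both on the minus strand. Capitals mark the bases covered by the 2 longest runs that the windows share.
Irs2: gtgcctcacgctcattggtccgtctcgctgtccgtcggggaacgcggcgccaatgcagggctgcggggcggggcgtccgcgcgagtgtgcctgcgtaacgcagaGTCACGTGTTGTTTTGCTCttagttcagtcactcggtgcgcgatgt
Irs1: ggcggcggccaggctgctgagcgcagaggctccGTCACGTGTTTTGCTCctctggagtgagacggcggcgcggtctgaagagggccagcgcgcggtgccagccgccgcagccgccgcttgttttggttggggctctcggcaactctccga

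The shared runs, GTCACGTGTT and TGTTTTGCTC, are 10 bases each and were picked after the sequences had been read. They overlap in both genes, and together cover 19 bases from -46 to -28 in Irs2 and 16 bases from -117 to -102 in Irs1. Searched on both strands, each run occurs in 25 of 32851 RefSeq windows of this length (0.0761%). Both occur together in 2 windows, those of Irs1 and Irs2, which hold them because the runs were defined there. These figures were not tested against chance, so no rarity or shared function is read from them. The first run contains the E-box CACGTG, a palindrome bound by basic helix-loop-helix leucine zipper factors. This E-box is present in 7.15% of the windows and, of the 8 members with a window, in Irs1 and Irs2. The FoxO core TGTTTAC was found among the members in Akt1 (3.65% of all windows) and the full cAMP response element TGACGTCA in none (1.79% of all windows). The half-site TGACG, which the full element contains, was found in Akt2, Irs1 and Pik3r1 (20.8% of all windows). In Irs1 this half-site overlaps the first shared run. These are matches of letters, not binding sites, and a missing match concerns these windows only.

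Downstream of the IRS proteins the differences were smaller. Pik3ca, which encodes the catalytic subunit p110 alpha, read 5.49 and 5.74 on the siNF45 arrays and 5.75 and 5.99 on the siNTC arrays. The groups were 0.01 apart at their closest, and the difference was -0.26 (SE 0.15), or -0.13 without siNF45 replicate 1 and -0.14 without siNTC replicate 2. Pik3r1, which encodes the regulatory subunit p85 alpha, read 6.98 and 7.04 on the siNF45 arrays and 7.27 and 7.28 on the siNTC arrays. Its replicates lay close together, the groups stood 0.23 apart, and the difference was -0.27 (SE 0.12), or -0.14 after centring, where the closest arrays of the groups were 0.01 apart and the siNF45 replicates 0.18 apart.

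Akt1, the broadly expressed AKT kinase, read 4.77 and 4.65 on the siNF45 arrays and 4.85 and 4.87 on the siNTC arrays. The groups stood 0.08 apart. The difference of -0.15 (SE 0.12) came to -0.09 without siNF45 replicate 2 and to -0.02 after centring, where the groups overlapped. Akt2, the AKT form best known for insulin control of glucose handling, read 4.93 and 4.76 on the siNF45 arrays and 4.88 and 4.90 on the siNTC arrays. These groups overlapped as deposited, with siNF45 replicate 1 the highest and siNF45 replicate 2 the lowest of the 4. The difference was -0.05 (95% interval -0.36 to 0.27), and it turned to 0.021 after quantile normalization, 0.085 after centring and 0.04 without siNF45 replicate 2.

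Foxo1, the FoxO factor at the end of this branch, read 4.20 and 3.96 on the siNF45 arrays and 4.26 and 4.27 on the siNTC arrays. The siNF45 replicate 1 array was within 0.06 of the control arrays, and replicate 2 was clearly lower. The difference was -0.19 (SE 0.14), -0.07 without siNF45 replicate 2 and -0.31 without siNF45 replicate 1. It was -0.088 after quantile normalization and -0.055 after centring, and the groups overlapped in both.

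Second probe sets existed for 3 members and were all below the signal filter. Those of Irs1 and Foxo1 differed by 0.17 and 0.23, from means of 1.23 and 1.76 in siNF45 and 1.06 and 1.53 in siNTC. A probe set annotated to both Irs2 and another gene differed by -0.06. At these levels they give no reading of the direction of the genes.

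**Figure D3:**
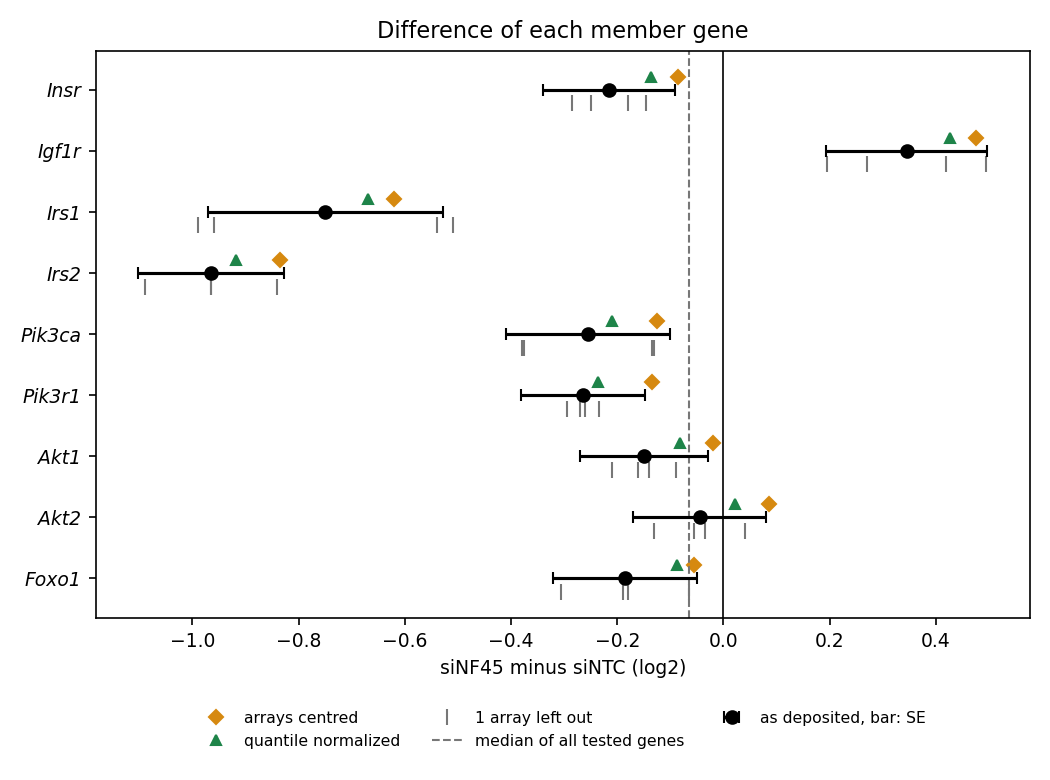
Difference of each member, siNF45 minus siNTC on the log2 scale: black points with bars of 1 SE are the values as deposited, diamonds those after centring the arrays, triangles those after quantile normalization, and grey ticks those with 1 array left out. Irs2 and Irs1 lie below -0.5 in each version, Igf1r lies above 0 in each version, and Akt2 crosses 0.

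Set against the rest of the pathway, Irs2 was lower than the median of the other 8 members on each siNF45 array. Relative to the siNTC mean of each gene, Irs2 was -0.97 on both siNF45 arrays, while the median of the other 8 was -0.14 on replicate 1 and -0.22 on replicate 2. The gap of Irs2 to that median was thus -0.83 on siNF45 replicate 1 and -0.74 on replicate 2, against 0.14 and -0.14 on the siNTC arrays. The siNTC values are equal and opposite because each gene was centred on its siNTC mean, so they are no separate baseline. Irs2 was set against the others on its difference in this comparison, so its place below them is a description and not a test. Over the groups, Irs2 differed from the median of the other 8 by -0.77, a value that centring cannot change. It was -0.61 without siNTC replicate 1 and -0.95 without siNTC replicate 2. Among the members, Irs1 had the profile closest to that of Irs2. On siNF45 replicate 1 Irs1 was -0.96 from its siNTC mean, about level with Irs2, and on replicate 2 it was -0.54. In closeness to Irs2 it ranked only 224 among all tested genes. Measured as the Euclidean distance between log2 values over the 4 arrays, each gene centred on its siNTC mean, Irs1 was 0.46 from Irs2, and the nearest tested genes were Dscam (0.094), Chic1 (0.095) and Sdk1 (0.099), which differed by -0.95, -0.94 and -0.91.

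The wider pathway was then examined in 7 lists of 102 genes that are not among the 9. Of these, 77 could be tested, and 55 differences were below 0 and 21 above, with a median of -0.12 against -0.07 over all tested genes. After centring, 37 were below 0 and 39 above, with a median of 0.02 against 0.07. None passed in limma at an adjusted p of 0.05, where 0.0766% of all tested genes were lower and 0.00852% higher. At an unadjusted p under 0.05, 14 of 77 (18.2%) were lower and 2 (2.6%) higher, against 13.2% and 4.02% of all tested genes. After centring 7 were lower and 7 higher, against 7.4% and 10.7% of all tested genes. The lower count was 3 without siNTC replicate 1 and 14 without siNTC replicate 2, where 7.1% and 9.14% of all tested genes were lower. It was 9 without siNF45 replicate 1 and 4 without siNF45 replicate 2, where 11.7% and 7.16% were lower.

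Among ligands, binding proteins and related receptors, 7 of 14 were tested, 4 below 0 and 3 above, around a median of -0.02, which was 0.12 after centring. Igf2, a ligand of Igf1r, read 7.5 and 7.31 on the siNF45 arrays and 7.91 and 7.83 on the siNTC arrays, a difference of -0.47 (SE 0.13, limma adjusted p = 0.180). Both siNF45 arrays were the lower ones. Igfbp7, an IGF-binding protein family member, differed by -0.48 (limma adjusted p = 0.212). Igf1 was among the 6 genes of this list below the filter.

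Of the other adaptors, 10 of 12 were tested, 8 below 0 and 2 above, with a median of -0.10, which was 0.03 after centring. The docking protein gene Gab2 read 2.45 and 2.31 on the siNF45 arrays and 2.91 and 2.78 on the siNTC arrays, without overlap, and differed by -0.47 (SE 0.13, limma adjusted p = 0.177). Sh2b1, Crkl and Grb2 differed by -0.23, -0.33 and -0.15, with limma adjusted p of 0.532, 0.544 and 0.602. Sh2b1 was at -0.06 without siNTC replicate 1, and without siNF45 replicate 2 Grb2 was at -0.06 and Crkl at 0.025. Irs3 and Irs4 were below the filter, so Irs1 and Irs2 were the measured members of the IRS family.

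Of the other phosphatidylinositol 3-kinase subunits, 6 of 7 were tested, 4 below 0 and 2 above, with a median of -0.23. This median was -0.095 after centring. Pik3cb, which encodes p110 beta, read 2.35 and 2.47 on the siNF45 arrays and 3.17 and 2.78 on the siNTC arrays, a difference of -0.57 (SE 0.17, limma adjusted p = 0.197). The siNTC replicates stood further apart than those of siNF45, and the groups did not overlap. Pik3r5, a regulatory subunit of the G protein-coupled enzyme, differed by -0.48 (SE 0.19, limma adjusted p = 0.288), or -0.73 without siNTC replicate 1 and -0.22 without siNTC replicate 2.

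The list of AKT, GSK3 and mTOR genes had 16 of 20 members tested, 9 below 0 and 7 above, around a median of -0.02, which was 0.12 after centring. Tbc1d4, the AKT substrate AS160 that controls glucose transporter traffic, read 2.84 and 3.06 on the siNF45 arrays and 3.47 and 3.35 on the siNTC arrays, a difference of -0.46 (SE 0.14, limma adjusted p = 0.200). The mTORC1 inhibitor Tsc2 differed by -0.23, the mTORC2 subunit Rictor by 0.22 and the mTORC1 substrate Eif4ebp1 by 0.29, with limma adjusted p of 0.436, 0.462 and 0.536. The Eif4ebp1 value rests on siNF45 replicate 1, without which it was -0.01.

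Negative regulators had 16 of 22 members tested, of which 14 were below 0, 1 above and 1 at 0. Their median was -0.21, or -0.075 after centring. Both siNF45 arrays lay below both siNTC arrays for 10 of the 16 (62.5%), against 32.6% of all tested genes, and above both for 0, against 15.2%. After centring 6 of the 16 (37.5%) were lower without overlap and 1 higher, against 18.1% and 31.2% of all tested genes. Cbl, a ubiquitin ligase for receptor tyrosine kinases, read 3.99 and 3.43 on the siNF45 arrays and 4.34 and 4.32 on the siNTC arrays, a difference of -0.62 (SE 0.20, limma adjusted p = 0.223). Its siNF45 replicates were far apart, and without siNF45 replicate 2 the difference was -0.34. The inositol phosphatases Inpp4b and Inppl1 (SHIP2) differed by -0.38 and -0.36, with limma adjusted p of 0.225 and 0.234. Socs2, a suppressor of cytokine signalling, differed by -0.81 (SE 0.35, limma adjusted p = 0.316). That value turned on siNTC replicate 1, which read 3.76 against 2.64 on replicate 2, and it was -0.25 without that array. A second, dimmer Socs2 probe set differed by 0.13.

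**Figure D4:**
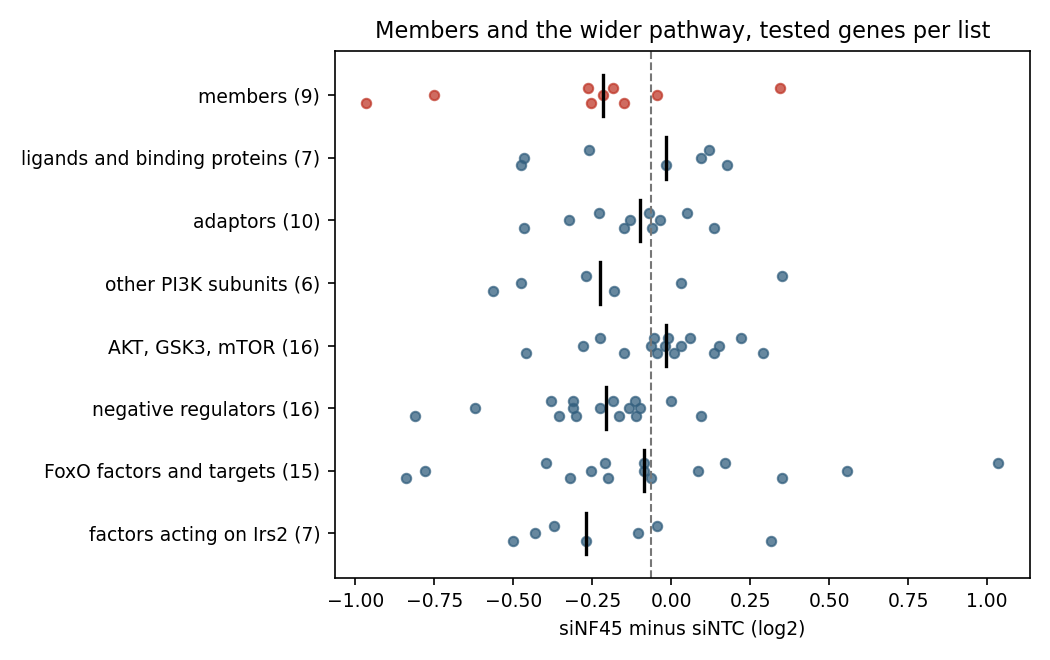
Differences, siNF45 minus siNTC (log2), of the 9 members (red) and of the tested genes of 7 wider lists (blue), with the number of genes in brackets. Black bars are list medians and the dashed line is the median of all tested genes (-0.07); the FoxO list holds both the highest value (Txnip, 1.04) and values below -0.7 (Trib1 and Bnip3).

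FoxO factors and genes known as FoxO targets spread widely, with 15 of 20 tested, 10 below 0 and 5 above and a median of -0.09, which was 0.05 after centring. Txnip, an inhibitor of thioredoxin that is also induced by glucose, read 5.38 and 5.48 on the siNF45 arrays and 4.34 and 4.45 on the siNTC arrays, a difference of 1.04 (SE 0.12, limma adjusted p = 0.071). It passed in 4 of the other fits, with limma adjusted p from 0.015 to 0.471 over all 12 of them. Sesn3, a stress-induced inhibitor of mTORC1, read 6.53 and 6.59 on the siNF45 arrays and 6.06 and 5.95 on the siNTC arrays, a difference of 0.56 (SE 0.12, limma adjusted p = 0.132). Both genes were higher on each siNF45 array than on any siNTC array. Trib1, a pseudokinase, read 3.03 and 3.37 on the siNF45 arrays and 4.08 and 4 on the siNTC arrays, a difference of -0.84 (SE 0.15, limma adjusted p = 0.108). Bnip3, a mitophagy receptor that is also a hypoxia target, differed by -0.78 (SE 0.16, limma adjusted p = 0.130). Genes of this list thus lay on both sides of 0 by similar sizes, and several have other known regulators.

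All 7 factors known to act on Irs2 transcription, other than Foxo1, were tested, 6 below 0 and 1 above, with a median of -0.27, or -0.14 after centring. The list does not sort factors by whether they raise or lower Irs2, so these counts have no single reading for Irs2. Srebf1, Crtc2, Srebf2 and Creb1 differed by -0.37, -0.27, -0.105 and -0.045, and Crtc1 by 0.315. The groups overlapped for Srebf2, Creb1 and Crtc1. Tfe3, an E-box factor known to raise Irs2 in mouse liver cells, read 4.55 and 4.44 on the siNF45 arrays and 5.06 and 4.79 on the siNTC arrays. The groups did not overlap and the difference was -0.43 (SE 0.14, limma adjusted p = 0.229), or -0.30 after centring. A link of Tfe3 to the E-boxes or to the Irs2 difference was not tested. The CREB coactivator Crtc3 read 3.59 and 3.82 on the siNF45 arrays and 4.46 and 3.95 on the siNTC arrays, a difference of -0.50 (SE 0.20, limma adjusted p = 0.290), with -0.25 when siNTC replicate 1 was left out.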

How the data were processed

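Total RNA of 4 samples was hybridised to 1 array each. The table that the authors deposited gives each probe set a log2 value on each array. Transcriptome Analysis Console produced it, per the submitters' processing notes, which leave its version, the algorithm and any background correction unstated in what was used here. No source names the log base, which was taken as log2 from the range of 0.12 to 12.21, on which all folds rest. Array medians over all probe sets were 1.66 and 1.66 for siNF45 and 1.64 and 1.64 for siNTC. Over the tested genes alone they were 3.72 and 3.6 for siNF45 and 3.82 and 3.76 for siNTC. Genes are uncentred, and the columns carry the sample names, which fixes the direction. The number of arrays limits the precision.

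Of 41345 probe sets, 23521 had 1 gene symbol in the platform annotation, 1814 several and 16010 were unnamed here. Those with 1 symbol and a mean over the 4 arrays that reached 1.65, the median of such means, were kept, and the brightest per gene was used (11742 genes). The comparison used limma 3.58.1 under R 4.3.3 (lmFit, eBayes, no covariate) with Benjamini-Hochberg adjustment over these genes and a threshold of 0.05; SE and 95% intervals are those of the fit. In simulated data with independent noise and no shift between arrays, it recovered 59.4% of changes of 1 log2 unit and 96.55% of larger ones. Of the calls made there, 5.07% were false.

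The members and lists were chosen with earlier results of these data known. The 9 members and Ilf2 are always named. In each wider list the 4 tested genes with the smallest p are named (2 in lists with fewer than 10, all in that of factors acting on Irs2). The 3 genes nearest to Irs2 are named too. Other genes named, such as markers, were chosen after their values were seen. Promoter windows are RefSeq sequences (GRCm38.p6). Alternatives were quantile normalization, centring, averaged probe sets, other filters, eBayes with a trend or robust, a replicate block and leaving out each array. Same-numbered arrays were not taken as pairs, since the labels tie them to no shared culture.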

Additional observations from a re-analysis of the deposited data

How the results depend on the processing

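The sign of the Irs2 difference was negative in every fit run, and its size moved to -0.84 after centring and ranged from -1.09 to -0.84 with 1 array left out. Its gap to the median of the other 8 members ranged from -0.95 to -0.61 with 1 array left out. Members lower without overlap numbered 7 as deposited, 5 after quantile normalization and 3 after centring, where 32.6%, 27.3% and 18.1% of all tested genes were. Akt2 turned to 0.021 after quantile normalization and 0.085 after centring. With 1 array left out Akt2 ran from -0.13 to 0.04, Crkl from -0.675 to 0.025 and Eif4ebp1 from -0.01 to 0.59, the far ends being without siNF45 replicate 1 or 2. Genes called over the whole array numbered 10 (1 higher, 9 lower), 62 after quantile normalization (18 and 44), 172 after centring (71 and 101), 87 at the 70th percentile filter (17 and 70), 174 with a trend in eBayes (40 and 134), and 0 with any 1 array left out (0 and 0). Of the wider pathway, 1 gene was called, Txnip, after quantile normalization, after centring and at the 70th percentile filter, and 2, Txnip and Sesn3, with a trend. The cause of these changes was not tested. With the replicate block 0 genes were called (0 higher, 0 lower), with 1909 at an unadjusted p under 0.05 and fewer residual degrees of freedom, and each difference was as without it. Deviations of same-numbered arrays correlated at 0.0062 over genes.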

Other observations

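Other genes carry 1 of the runs shared by the Irs1 and Irs2 windows. Of the tested genes other than Irs1 and Irs2, 13 have GTCACGTGTT in a RefSeq window. Of these 13, 8 were below 0 in siNF45, with a median of -0.11 and a range from -0.73 to 0.27. Among the 9235 tested genes with any window, 5646 were below 0, a similar share. The run TGTTTTGCTC was found in 5 other tested genes, 2 of them below 0, with a median of 0.01 and a range from -0.17 to 0.14. The E-box in the form TCACGTG was present for 646 other tested genes, whose median was -0.08, against -0.07 over the 9235 tested genes with any window. These values are descriptions of a feature chosen after the sequences and differences were seen.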
